A study of Mus musculus with 6 samples.

Results

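The MHC class II genes described here are 7 of the 17666 genes in a table of the mouse auditory nerve, chosen by symbol: H2-Aa, H2-Ab1, H2-Eb1, H2-DMa, H2-DMb1, Cd74 and Ciita. All 7 had a row and passed the filter on low values. The nerves came from young adult C57 mice aged 1.5 to 2.5 months, 3 labelled wildtype and 3 labelled "FactorB KO", in which Cfb, encoding complement factor B, is knocked out, with no treatment named. For each sample, nerve tissue was dissected from both cochleas of a mouse and pooled, and the labels name neither the allele, the substrain nor the sex. The values are gene counts scaled by the authors, called normalized counts here, so read depth is unknown and the column totals (38675077 to 41496282) reflect the scaling.

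MHC class II molecules are pairs of an alpha and a beta chain that carry peptides from endosomes to the cell surface, where CD4 T cells read them. The invariant chain Cd74 guides new pairs to the endosome and blocks their groove, proteases trim it to a short fragment, and the H2-DM heterodimer exchanges that fragment for peptide. Ciita is the coactivator that switches on the promoters of these genes, together with factors bound at 2 DNA elements, the X box and the Y box. In the cochlea and its nerve, resident macrophages are the immune cells best known for carrying class II, and dendritic cells and B cells carry it in other tissues. C57BL/6 mice lack a working H2-Ea gene, so in that strain the H2-Eb1 chain has no partner and the A chains make up the surface class II.

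The X and Y matches are shown for the 3 members whose promoter held both. Of these members, 2 lay higher in the knockout-labelled libraries, and H2-DMb1 was lower on average with overlapping labels. The stretches run 5′ to 3′ on the gene's strand, from 150 to 31 bases before the start site, with the X box match and then the Y box match in capitals (RefSeq, GRCm38.p6). They lie at chr17:34287854-34287973 (minus strand, H2-Aa), chr17:34305717-34305836 (plus strand, H2-Eb1) and chr17:34153041-34153160 (plus strand, H2-DMb1), in the flank 5′ of each gene.
H2-Aa: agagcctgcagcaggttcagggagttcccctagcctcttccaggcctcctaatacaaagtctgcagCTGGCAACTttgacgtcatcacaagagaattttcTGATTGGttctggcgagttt
H2-Eb1: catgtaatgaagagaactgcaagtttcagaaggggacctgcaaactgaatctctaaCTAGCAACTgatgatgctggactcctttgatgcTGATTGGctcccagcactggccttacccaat
H2-DMb1: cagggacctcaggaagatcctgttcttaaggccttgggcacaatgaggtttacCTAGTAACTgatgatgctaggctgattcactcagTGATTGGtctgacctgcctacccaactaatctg

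The letters searched on both strands were CTNGNAACT for the X box and TGATTGG for the Y box, which do not overlap. They were written with these promoters in view, so the counts describe the sequences and are no independent evidence. The X box letters were in 4.1% and the Y box letters in 7.82% of 32851 RefSeq promoter windows. These windows were of equal length and reached further than the printed stretches on both sides. Both on 1 strand, with X first and 10 to 30 bases between, were in 5 windows, those of H2-Aa, H2-Eb1, H2-DMb1, 1700048F04Rik and BC051142. The spacing was 25 bases in H2-Aa and H2-DMb1 and 24 in H2-Eb1. Neither window of H2-DMa held the letters of either element, and those of H2-Oa, H2-Ob, H2-DMb2 and H2-Eb2 held the Y box letters alone. Only exact letters were searched, so a missing match does not show that an element is absent. Promoter windows were matched for 4 of the 7 members, and H2-Ab1, Cd74 and Ciita are named only.

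Cfb, the targeted gene, had 55, 39 and 116 normalized counts in the wildtype-labelled libraries and 336, 351 and 376 in the knockout-labelled ones. The targeted gene was thus higher where the label says knockout, against the labels. A count per gene cannot show whether reads lie in the disrupted part of the gene, and all directions below are between libraries as labelled.

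The transcripts of the class II chains, the invariant chain and Ciita were each higher in all 3 knockout-labelled libraries than in any wildtype-labelled library, by 1.39- to 2.46-fold, and those of the 2 H2-DM chains were lower on average with overlapping values. By limma on log2(value + 1), a linear model over all genes with Benjamini-Hochberg adjustment, 0 of the 7 members passed an adjusted p of 0.05. Over all genes 0.158% passed. At an unadjusted p under 0.05 there were 5 members, all higher, against 10.8% of all genes, and the same 5 were the members whose labels did not overlap with knockout higher, against 13.6% of all genes. In the authors' deposited table Cd74 alone of the 7 had a false discovery rate under 0.05, against 7.39% of the 15605 genes with a rate. The median log2 difference of the members was 0.48, and that of all genes was 0.0060. The tests treat the mice as replicates, and the labels do not say whether the mice of a label shared a litter or a preparation.

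**Figure D1:**
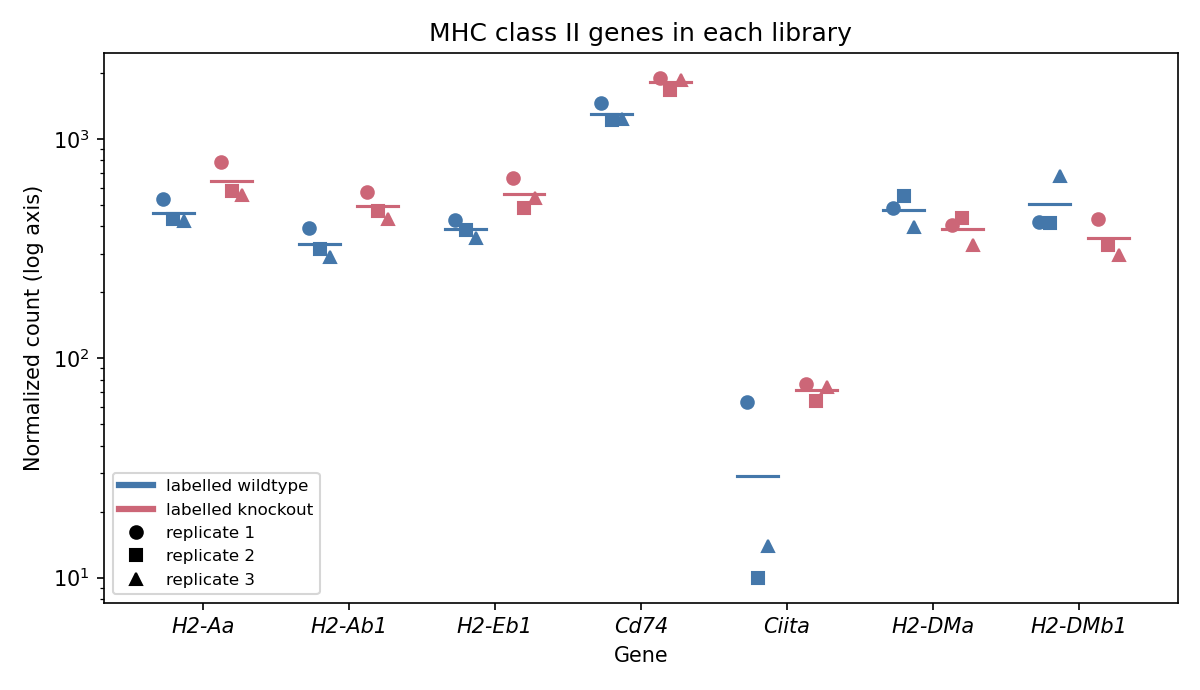
Normalized count of each member (log axis) in the 3 wildtype-labelled libraries (blue) and the 3 labelled knockout (red), with a symbol for each replicate number and a line at the mean of each label. The red points lie above all blue points for H2-Aa, H2-Ab1, H2-Eb1, Cd74 and Ciita, and the colours overlap for H2-DMa and H2-DMb1.

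H2-Aa, the alpha chain of the A molecule, had 530, 430 and 424 normalized counts in wildtype replicates 1, 2 and 3 and 788, 582 and 556 in the knockout replicates. H2-Ab1, its beta chain, had 392, 315 and 289 against 576, 471 and 432. In both genes replicate 1 was the highest library of each label, and the labels did not overlap. H2-Aa was 1.39-fold higher, from 461.3 ± 59.5 to 642.0 ± 127.1 (SD, n = 3 each), with a log2 difference of 0.47 (SE 0.18, limma adjusted p = 0.227). Without knockout replicate 1 that difference was 0.31. H2-Ab1 was 1.48-fold higher, from 332.0 ± 53.6 to 493.0 ± 74.5 (SD, n = 3 each), with a log2 difference of 0.57 (SE 0.18, limma adjusted p = 0.186).

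H2-Eb1, the beta chain of the E molecule, had 427, 385 and 355 normalized counts in the wildtype-labelled libraries and 665, 484 and 539 in the knockout-labelled ones. Its labels did not overlap either, and knockout replicate 1 again held the highest value. The mean went from 389.0 ± 36.2 to 562.7 ± 92.8 (SD, n = 3 each), 1.45-fold, a log2 difference of 0.52 (SE 0.17, limma adjusted p = 0.185). The transcript levels of H2-Ea, which encodes the partner chain, and of H2-Eb2 were not analysed here. The deposited false discovery rates of the 3 chain genes in the authors' deposited table were 0.144 for H2-Aa, 0.0726 for H2-Ab1 and 0.0638 for H2-Eb1.

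Cd74, the invariant chain, was the most abundant member, with 1456, 1223 and 1235 normalized counts in the wildtype-labelled libraries and 1898, 1677 and 1857 in the knockout-labelled ones. The lowest knockout library lay above the highest wildtype library. Its mean was 1305 ± 131 against 1811 ± 118 (SD, n = 3 each), 1.39-fold higher, with a log2 difference of 0.48 (SE 0.12). The limma adjusted p of 0.162 was the lowest of the 7 members. In the authors' deposited table its fold change was 1.39 with a false discovery rate of 0.0197.

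Ciita, the coactivator, was the least abundant member, with 63, 10 and 14 normalized counts in the wildtype-labelled libraries and 76, 64 and 74 in the knockout-labelled ones. Wildtype replicate 1, at 63, lay next to the lowest knockout library, at 64, and the other wildtype libraries were far below both. The mean went from 29.0 ± 29.5 to 71.3 ± 6.4 (SD, n = 3 each), 2.46-fold, so the wildtype spread was as large as the wildtype mean. The log2 difference of 1.72 (SE 0.64, limma adjusted p = 0.213) was 2.49 without wildtype replicate 1 (adjusted p = 0.0507) and 1.22 without wildtype replicate 2. In the authors' deposited table its false discovery rate was 0.238.

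H2-DMa and H2-DMb1, the chains of the peptide exchange factor, showed the opposite sign. H2-DMa had 485, 547 and 396 normalized counts in the wildtype-labelled libraries and 404, 435 and 329 in the others, and 2 of the knockout values lay within the wildtype range. H2-DMb1 had 418, 416 and 681 against 432, 329 and 296, with wildtype replicate 3 apart from the rest and knockout replicate 1 above the other 2 wildtype libraries. The log2 difference was -0.29 for H2-DMa (SE 0.18, limma adjusted p = 0.417). It was -0.50 for H2-DMb1 (SE 0.25, limma adjusted p = 0.305), and -0.26 without wildtype replicate 3. H2-DMa had -0.18 without wildtype replicate 2 and -0.17 without knockout replicate 3. H2-DMb2, a close copy of H2-DMb1, had 1 to 7 normalized counts in the 6 libraries, against 296 to 681 for H2-DMb1. How reads that match both genes were counted is not known, so either level could be affected.

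**Figure D2:**
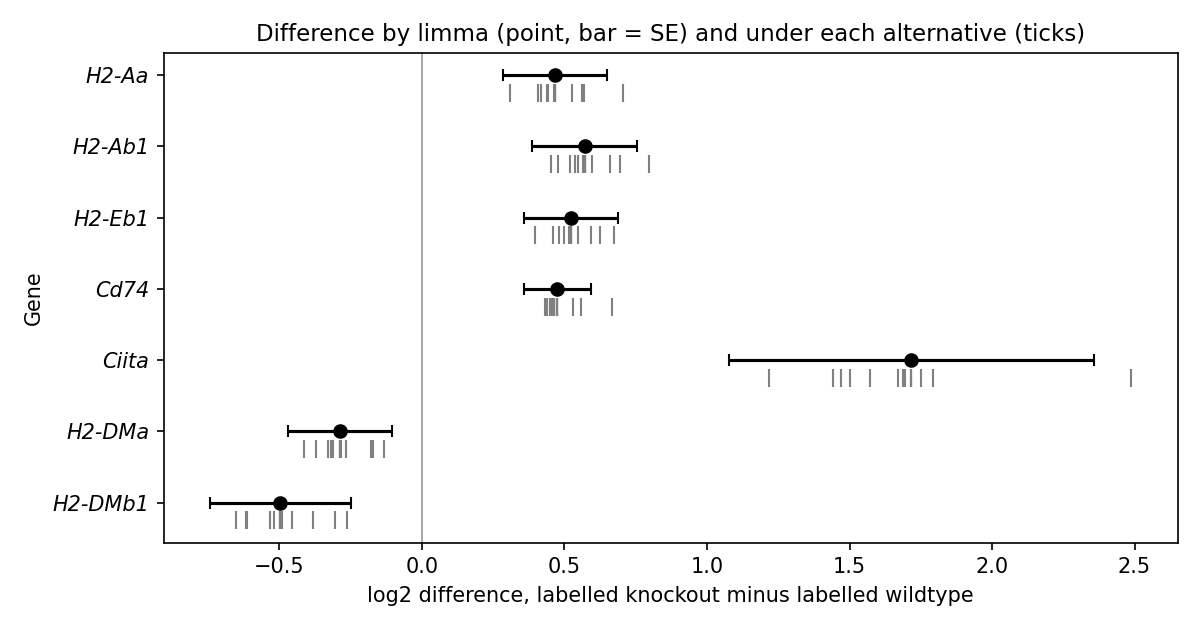
Log2 difference of each member, labelled knockout minus labelled wildtype, by limma (black point, bar of 1 SE) and under 15 alternative settings (grey ticks). The ticks of H2-Aa, H2-Ab1, H2-Eb1, Cd74 and Ciita all lie right of 0 and those of H2-DMa and H2-DMb1 left of 0. The filter, trend and block settings cannot move the difference, so their ticks repeat the value of the black point.

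Levels of different genes were compared per kb of transcript. In the wildtype-labelled libraries the order was Cd74 (925 normalized counts per kb), H2-Aa (409), H2-DMb1 (360), H2-DMa (287), H2-Ab1 (274), H2-Eb1 (233) and Ciita (4.83). Neighbours from H2-Aa down to H2-Eb1 overlapped between libraries, while Cd74 stood above and Ciita below them all. In the knockout-labelled libraries the 3 chain genes came before both H2-DM genes, with Cd74 at 1284 per kb, H2-Aa at 569, H2-Ab1 at 407, H2-Eb1 at 337, H2-DMb1 at 251, H2-DMa at 235 and Ciita at 11.9. There H2-Aa did not overlap H2-Ab1, and neighbours from H2-Ab1 down to H2-DMa overlapped.

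Within a library, the chain genes and Cd74 kept close proportions. H2-Aa per kb was 1.33 to 1.58 times H2-Ab1 in the 6 libraries, and H2-Eb1 per kb was 0.746 to 0.906 times H2-Ab1. Normalized counts of Cd74 were 0.935 to 1.22 times the sum of H2-Aa, H2-Ab1 and H2-Eb1. These ranges were narrow beside the range of the H2-DM genes: the sum of H2-DMa and H2-DMb1 over the sum of the 3 chain genes was 0.669, 0.852 and 1.01 in the wildtype-labelled libraries and 0.412, 0.497 and 0.409 in the others. That ratio was thus lower in each knockout-labelled library. It was formed after the values were seen and was not tested.

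Across the 6 libraries Pearson's r of the log2 values was 0.98 between H2-Aa and H2-Ab1, 0.96 between H2-Aa and H2-Eb1, and 0.93 between Cd74 and H2-Ab1. Ciita had r of 0.80 to 0.91 with the chain genes and Cd74. H2-DMa and H2-DMb1 had r of -0.66 to -0.33 with those 4 genes and of 0.18 with each other. These values describe 6 libraries that fall into 2 labels, and the difference between labels enters each r. By the same measure, the 5 genes of 14207 with a mean of at least 50 that were most like the mean of H2-Aa, H2-Ab1, H2-Eb1 and Cd74 were Col6a1 (r = 0.99), a collagen VI chain, Shisa3 (0.99), Cenpj (0.99), a centriole protein, Prtg (0.99) and Pcdhga4 (0.99), a protocadherin.

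H2-DMa, H2-DMb1, H2-Ab1, H2-Aa and H2-Eb1 lie on chromosome 17 in that order (GRCm38.p6), 540 to 717 kb from Cfb (34856374 to 34862514). Ciita is on chromosome 16 and Cd74 on chromosome 18. The members higher in the knockout-labelled libraries were thus 3 on chromosome 17 and 2 elsewhere. Both H2-DM genes, lower on average with overlapping labels, are on chromosome 17. Whether sequence linked to the targeted allele has a part in the chromosome 17 values was not tested.

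The summed macrophage markers overlapped between labels. All 24 were measured and none was at 0 in any library, with a summed level of 21761 to 27641 normalized counts in the wildtype-labelled libraries and 20802 to 23021 in the others. Their median log2 difference was -0.13. Limma called 0 of 24. At an unadjusted p under 0.05 there were 5, against 20.0% of all genes: Itgam with knockout higher, and C1qb (-0.33), Cd68 (-0.42), Tyrobp (-0.50) and Cd14 (-0.66) with knockout lower. Itgam alone was called in the authors' deposited table, against 7.39% of the 15605 genes with a rate. Csf1r, the receptor that macrophages need to survive, had 2993, 2602 and 2835 normalized counts against 3299, 3228 and 2924. C1qa, a complement component made by macrophages, had 1225, 1446 and 1562 against 1254, 1103 and 1118. Itgam, a subunit of complement receptor 3, had 325, 319 and 380 against 539, 537 and 482, a log2 difference of 0.61 (limma adjusted p = 0.161; 0.69 and adjusted p = 0.0441 without wildtype replicate 3). In bulk tissue, fewer cells of a type and less RNA per cell cannot be told apart.

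Members were also set against the mean log2 level of the 24 macrophage markers in the same library. This measure was chosen after the data were seen. On it the 5 higher members did not overlap between labels, and the share of all genes that did not overlap was not computed. The markers' own difference of -0.082 raises every member on this scale. Ciita was barely apart, at -3.07 in wildtype replicate 1 against -3.04 in knockout replicate 2. The log2 difference on this relative scale was 0.55 for H2-Aa, 0.65 for H2-Ab1, 0.60 for H2-Eb1, 0.56 for Cd74 and 1.80 for Ciita. It was -0.20 for H2-DMa and -0.41 for H2-DMb1, both with overlapping labels. H2-Ab1 amounted to 13.1, 12.1 and 10.2 normalized counts per 100 of Csf1r in the wildtype-labelled libraries and 17.5, 14.6 and 14.8 in the others. Per 100 of C1qa it was 32.0, 21.8 and 18.5 against 45.9, 42.7 and 38.6, also without overlap. Per 100 of Aif1, a calcium-binding protein of macrophages, it was 440, 315 and 526 against 570, 596 and 497, which overlap.

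**Figure D3:**
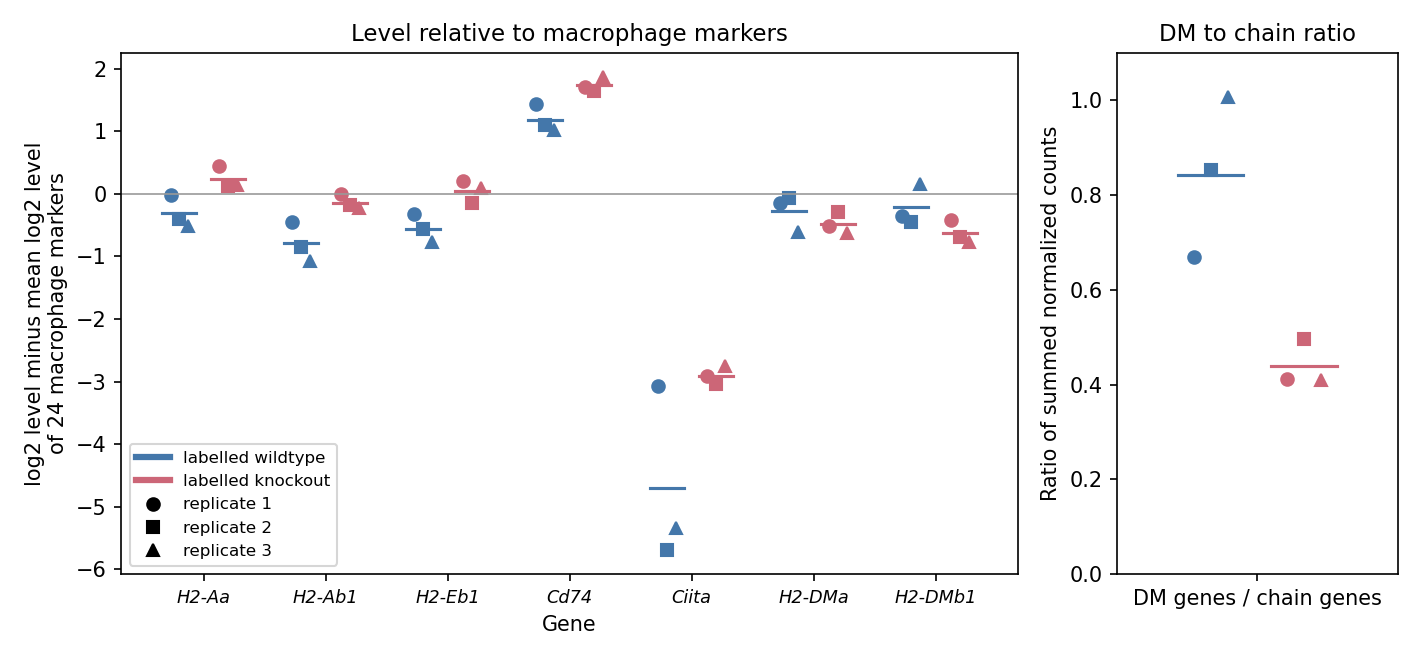
Left, log2 level of each member minus the mean log2 level of 24 macrophage markers in the same library; right, the summed normalized counts of H2-DMa and H2-DMb1 over those of H2-Aa, H2-Ab1 and H2-Eb1, with wildtype-labelled libraries in blue, knockout in red and a line at each mean. The red points lie above the blue for the chain genes, Cd74 and Ciita, and below the blue (0.409 to 0.497 against 0.669 to 1.01) in the ratio.

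Dendritic cell markers summed to 3304 to 5210 normalized counts in the wildtype-labelled libraries and 4629 to 5667 in the others. Most of each sum came from Fscn1 and Flt3, and whether dendritic cells made those transcripts was not tested. The 13 markers had a median log2 difference of 0.19, and limma called 0 of them. At an unadjusted p under 0.05 there were 2, Cd209a with knockout higher and Batf3 with knockout lower, against 20.0% of all genes. Of the markers, the transcription factor genes Zbtb46 (138 to 271) and Irf8 (152 to 320) and the plasmacytoid dendritic cell gene Siglech (131 to 214) were measured in every library, with overlapping labels. Others were scarce. Clec9a, a receptor of cross-presenting dendritic cells, had 20, 17 and 19 against 30, 30 and 28. Cd209a, a lectin of monocyte-derived dendritic cells, had 6, 0 and 1 against 14, 6 and 9, with overlapping labels. Xcr1 was at 0 to 6. Batf3, a transcription factor of the same cells as Clec9a, went the other way, with 51, 73 and 75 against 32, 40 and 40. The part of dendritic cells in the class II values was not tested.

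B cell markers were low, and their sum was lower in the knockout-labelled libraries, with 214 to 262 against 138 to 194 normalized counts over 11 measured markers. Ms4a1, a surface protein of B cells, had 15, 11 and 20 normalized counts against 5, 7 and 2. Cd79a had 45, 63 and 56 against 40, 27 and 18. The median log2 difference of the B cell markers was -0.98, and 8 of the 11 were negative. Limma called 0, and 3, all lower, had an unadjusted p under 0.05, against 20.0% of all genes. Of the 3 higher markers, Cr2, a complement receptor, did not overlap, with 6, 6 and 4 against 16, 13 and 7. T and NK cell markers summed to 144 to 242 against 122 to 166 over 11 measured markers, of which limma called 0 and 2 had an unadjusted p under 0.05, both lower, against 20.0% of all genes. Blood and marrow transcripts lay lower too: the 6 red cell markers summed to 7728 to 23256 against 2128 to 2979. The 7 neutrophil and marrow markers summed to 711 to 2190 against 18 to 688, and Ltf made up 460 of the 688 in knockout replicate 1. Limma called 0 markers of either list. The authors' deposited table called 6 red cell markers and 4 neutrophil and marrow markers lower, against 7.39% of the 15605 genes with a rate. Schwann cell markers (535611 to 751420 against 410049 to 496718 over 8 genes) and neuron markers (290000 to 500725 against 398058 to 480081 over 8 genes) were abundant in every library of this nerve tissue. All 8 Schwann cell markers had negative differences, with a median of -0.32, and the authors' deposited table called Pmp22 (1.69-fold) and Cdh19 (1.31-fold) lower. Of the 15605 genes with a rate, that table called 7.39% in either direction.

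Beyond the members, 36 of 44 listed symbols of the class II pathway were measured, 2 of the others being later names of measured genes. By limma 0 of the 36 passed, and 1 was higher and 5 lower at an unadjusted p under 0.05 (against 20.0% of all genes in either direction). The authors' deposited table called Cd86 alone, lower, against 7.39% of the 15605 genes with a rate. The labels did not overlap for 2 genes with knockout higher and 10 with knockout lower, against 13.6% and 14.9% of all genes. The median log2 difference was -0.050.

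Of the other editors of peptide loading, H2-Ob, a chain of the H2-DO inhibitor of H2-DM, had 20, 40 and 19 normalized counts against 15, 23 and 13, and H2-Oa, its partner, had 1 to 8 in the 6 libraries. Both overlapped between labels. The endosomal enzymes lay mostly lower: 6 of 7 had labels that did not overlap, all with knockout lower, beside 14.9% of all genes; no test compared the enzymes with other genes. Ifi30, the thiol reductase that opens disulfide bonds of antigens, had 562, 831 and 1852 against 487, 422 and 534, with wildtype replicate 3 the highest. Its log2 difference of -0.99 (limma adjusted p = 0.237) was -0.51 without that library. Ctsl, cathepsin L, had 9200, 10497 and 17248 against 8382, 7245 and 7841, a log2 difference of -0.60 (limma adjusted p = 0.224; -0.33 without wildtype replicate 3). Lgmn, an asparaginyl endopeptidase, had -0.19, and the abundant Ctsb and Ctsd had -0.20 and -0.17 (-0.11 for Ctsd without wildtype replicate 3). Ctss, cathepsin S, which cuts the invariant chain in macrophages and other presenting cells, had 1307, 1723 and 1741 against 1633, 1610 and 1545, which overlap.

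The promoter factors lay on both sides of 0. Rfx5, Rfxap and Rfxank, which form the complex at the X box, had log2 differences of 0.03, -0.12 and 0.12, all with overlapping labels and adjusted p of 0.528 or more by limma. At the Y box, Nfya had 0.14 with overlapping labels. Signs turned with single libraries: Rfx5 had -0.10 without wildtype replicate 1, Rfxap 0.034 without wildtype replicate 2 and Nfya -0.067 without wildtype replicate 3. Nfyb had 965, 1114 and 981 normalized counts against 835, 791 and 806, a log2 difference of -0.33 (limma adjusted p = 0.198). Nfyc had 1152, 1577 and 1537 against 980, 1028 and 1017, a log2 difference of -0.48 (limma adjusted p = 0.176). The labels of Nfyb and Nfyc did not overlap.

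Interferon gamma, the main inducer of Ciita, signals through receptor-bound Janus kinases; the level of its own transcript was not analysed here. The kinase gene Jak1 had a log2 difference of 0.20 and Irf1, an interferon-induced transcription factor, one of 0.10, both with overlapping labels. On the side of T cell contact, Cd86, a costimulatory ligand on presenting cells, had 95, 102 and 164 against 60, 65 and 56. Its labels did not overlap, and its log2 difference was -0.94 (limma adjusted p = 0.171). The authors' deposited table gave Cd86 as 1.99-fold lower with a false discovery rate of 0.0413. Cd80, the related ligand, had 15, 16 and 6 against 26, 29 and 14, which overlap. Icam1 (0.16), an adhesion ligand, Lag3 (0.25) and Cd4 (-0.34), receptors of class II, and the turnover genes Cd83 (0.16) and March8 (0.04) also overlapped between labels. Without wildtype replicate 3 the difference was -0.44 for Cd83 and 0.15 for Cd4, so neither kept its sign, and without knockout replicate 1 that of Icam1 was 0.012.

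**Figure D4:**
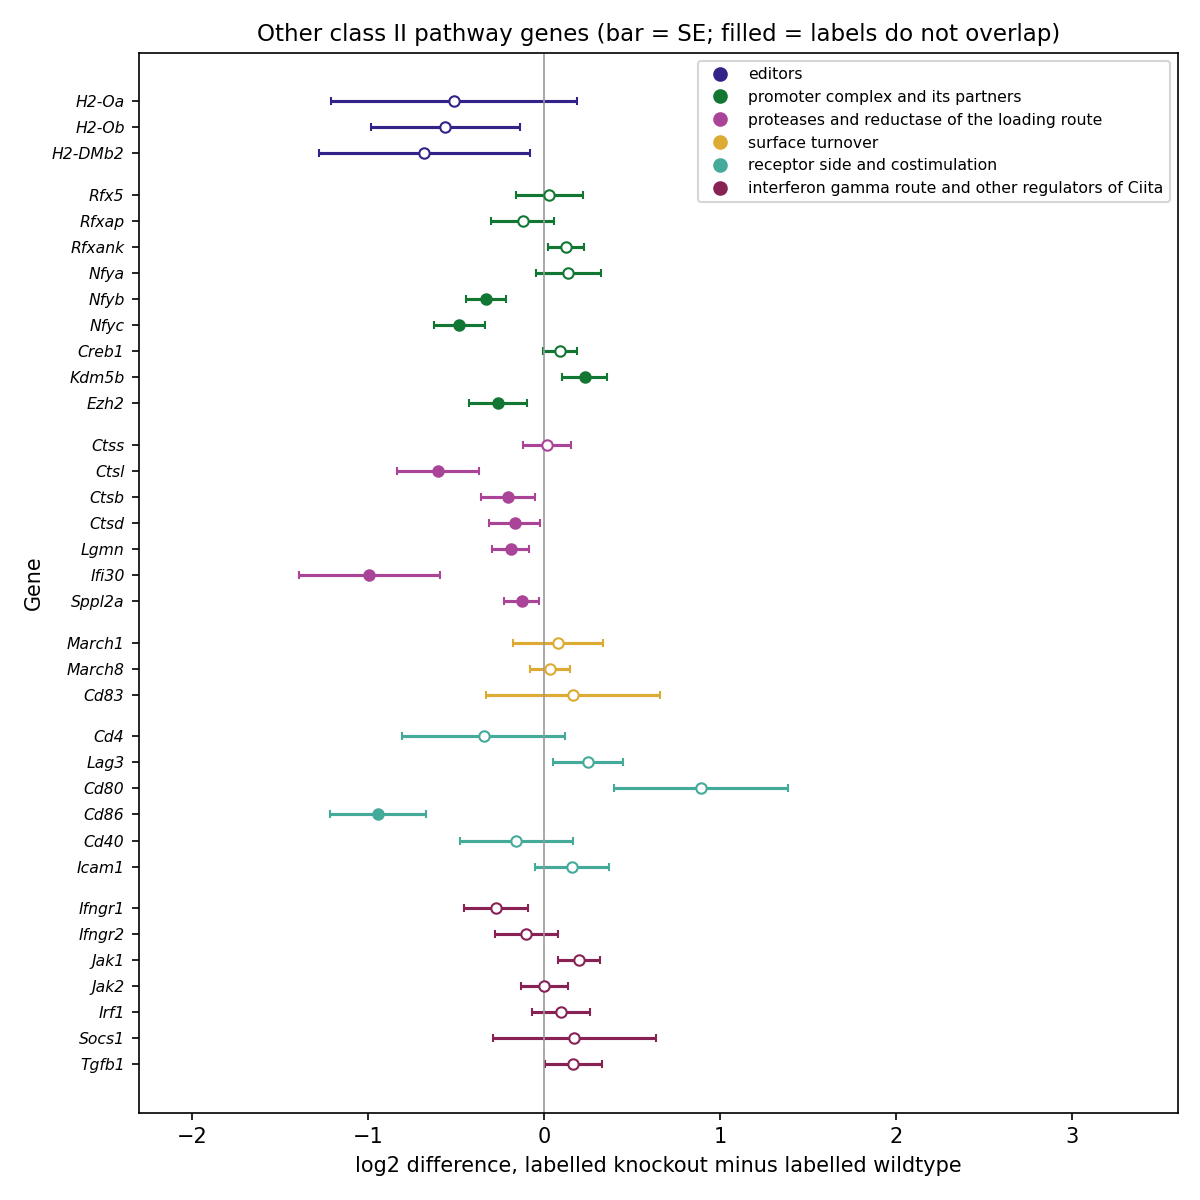
Log2 difference, labelled knockout minus labelled wildtype, of measured pathway genes other than the members, coloured by role, with a bar of 1 SE by limma. Filled points are genes whose labels do not overlap; most of the endosomal enzymes are filled and left of 0, with Ifi30 at -0.99 and Ctsl at -0.60, and the promoter factors lie on both sides.

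Each library was also corrected for a smooth trend of its log2 values on transcript length, an alternative added once the data had been seen. After that correction the log2 difference was 0.71 for H2-Aa, 0.80 for H2-Ab1, 0.67 for H2-Eb1, 0.67 for Cd74, 1.47 for Ciita, -0.13 for H2-DMa and -0.31 for H2-DMb1. By limma 0 of the 7 members passed after it, and 5 had an unadjusted p under 0.05, against 15.0% of all genes under that correction. Of the enzymes, Ctsb had -0.35 after it, Ctsl -0.86, Ifi30 -0.73, Ctsd -0.077 and Lgmn -0.081. Among the promoter factors Rfx5 (-0.080) and Rfxap (0.20) changed sign. The macrophage genes C1qb (-0.088), Cd68 (-0.20) and Tyrobp (-0.16) came nearer to 0, as did Csf1r (0.025) and C1qa (-0.025). Of the 5 most alike genes, Prtg changed sign (-0.13).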

How the data were processed

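RNA was purified with the miRNeasy kit and libraries were made with the TruSeq RNA kit, per the labels' protocols. The submitters' processing notes list TopHat2, DESeq2, Partek and mm10 with no role named; the annotation, filters, strand setting and read depth are not given in the sources used here. Each deposited score per gene and sample was made by the authors: counts scaled per sample and rounded. This reading comes from the values: median-of-ratios factors were 1.004 to 1.007, and 99.8% of 13938 deposited fold changes lay within 1% of the ratio of column means. No count test was therefore run, although the design had named one for raw counts; its fallback was used. Signed fold changes and false discovery rates (other units) are the authors' deposited values, and 2061 genes have no rate.

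Values were taken as log2(value + 1), a minimum mean of 1 removed 0 genes, and limma 3.58.1 in R 4.3.3 fitted the label with eBayes and a trend, adjusted by Benjamini-Hochberg at 0.05 over 17666 genes. The script was checked on simulated data. With 3 against 3, an exact permutation test could not go below 0.1. Levels per kb used the longest APPRIS principal transcript of GENCODE M21, which also served the length correction (98.3% of genes). The members and lists were chosen with earlier results of these data known. The naming rule took Cfb, the members, called or abundant genes of each list, and the 5 most alike genes; some genes it names are not reported here, and other list genes were named after their values were seen. There were 0 unused sample columns.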

Additional observations from a re-analysis of the deposited data

How the results depend on the processing

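The differences of the 7 members kept their direction under all 15 alternatives tested with limma (pseudocounts of 0.5 and 5, no filter, a mean of at least 10, upper quartile and quantile scaling, no trend, a replicate block, a length correction and each library left out), and 0 members and 0 of the other pathway genes passed under any of them. The filter, trend and block settings cannot change a member's log2 difference, so its direction under them was fixed in advance. Between 1 and 5 members had an unadjusted p under 0.05, the lowest without knockout replicate 1, where 12.6% of all genes did; over the alternatives that share was 10.2% to 29.3%. The number of genes called over the whole table was 28, and it was 16 without the trend and 0 to 566 with 1 library left out. With the replicate number as a block it was 7. The numbers are no pairing from the design: deviations of same-numbered libraries had correlations of -0.065, 0.10 and 0.25, and wildtype replicate 1 correlated best with knockout replicate 2 (0.47). The cause of these changes was not tested. Of the other named genes, Cfb (2.91, adjusted p = 0.00348), Itgam, Hba-a1 and Hbb-bs passed by limma without wildtype replicate 3. Relative to the 24 macrophage markers no member changed sign, but that scale could not turn one. It shifts every member by the markers' own difference of -0.082, which is smaller than the difference of any member. Read depth is unknown, so the precision of Ciita, H2-Oa and the other genes with few counts cannot be stated from counting.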
